A study of Mus musculus with 8 samples.

Results

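The genes described here encode proteins that build the small (40S) ribosomal subunit, together with the core proteins of the small nucleolar ribonucleoproteins (snoRNPs) that modify and fold ribosomal RNA. They are 49 genes, chosen by symbol from the 58825 in the deposited expression table, and each symbol matched 1 row. The list was drawn up with results of these data known, including the comparison of rFGF4 with PBS. The fold changes and calls below therefore describe the fit and are not independent evidence that the genes moved together.

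Per the labels, skin within 2 mm of wounds was taken at day 6 from C57BL/6 mice aged 6 to 8 weeks. The wounds received recombinant fibroblast growth factor 4 (rFGF4, 4 libraries) or PBS as the control (4 libraries). No other allele or agent is given, and nothing says whether the replicates came from separate animals, so p-values measure the spread between these libraries. The table does not match the labels: its identifiers, symbols and coordinates are human. Its columns, named C and FGF4 with replicate numbers, were matched to the libraries by name alone, with C read as the PBS control, and no value is attributed to mouse skin. The libraries held between 62044121 and 73680756 counts. The basal keratinocyte markers KRT5 and KRT14 stood at a mean of 910.5 and 1026 FPKM (fragments per kilobase and per library size), and all 5 markers of that list were above 1 FPKM. Of 6 dermal fibroblast, 3 skeletal muscle and 2 erythrocyte markers none reached a mean of 1 FPKM, nor did PTPRC, the pan-leukocyte marker. CD68 (8.66 FPKM) and CDH5 (1.52 FPKM) did, as the single members of the 4 leukocyte and 4 endothelial markers. None of the 7 tested markers passed between the groups by edgeR's adjusted p. By unadjusted p, CDH5 (0.33, SE 0.11, on the log2 scale, no overlap, and past the threshold with DESeq2) and CD68 (0.29, SE 0.11) were higher with rFGF4 and KRT14 (−0.17, SE 0.06, no overlap) was lower. Summed over their lists, the 4 endothelial markers ran from 16.7 to 28.5 CPM with PBS and 28.4 to 41.6 CPM with rFGF4, and the 4 leukocyte markers from 18.4 to 22.2 CPM and 20.1 to 27.4 CPM. The 5 keratinocyte markers ran from 7906 to 9384 CPM and 7486 to 8379 CPM, and the 6 fibroblast markers from 8.13 to 9.06 CPM and 4.88 to 5.37 CPM. The part of cell make-up in the results below was not tested.

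A ribosome begins as a long precursor RNA transcribed in the nucleolus. Box C/D snoRNPs guide ribose methylation and box H/ACA snoRNPs guide pseudouridylation of that RNA, while the U3 snoRNP, a box C/D particle, pairs with the precursor and organises the small subunit processome. This large assembly forms from the UTP-A, UTP-B and UTP-C subcomplexes, the MPP10 complex and many single factors, and folds and cuts the precursor. The pre-40S particle is then exported and finished in the cytoplasm. Growth factor signalling and MYC are known to raise expression of these genes in proliferating cells, keratinocytes included.

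Every one of the 49 genes had a mean level of at least 1 FPKM and was tested, and each had a positive log2 fold change (rFGF4 over PBS). The median was 0.35, against 0.00 over all 11536 tested genes, and the range was 0.07 to 0.63. By edgeR's quasi-likelihood test with Benjamini-Hochberg adjustment over all tested genes and a threshold of 0.05, 26 of the 49 rose and 0 fell (also 0 lower by unadjusted p and by DESeq2). Over all tested genes, 5.49% rose and 4.54% fell. The 4 rFGF4 values lay above the 4 PBS values for 32 of the 49, a pattern seen in 10.1% of all tested genes; the reverse pattern was seen for 0 of the 49 and 9.26% of all tested genes. Since this comparison was in view when the list was made, nothing is read from these counts. In bulk RNA, a different make-up of cells and a different RNA level per cell cannot be told apart.

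Summed over the 49 genes, the level per library was 3942, 3907, 4034 and 4045 CPM in PBS replicates 1 to 4 and 5204, 5155, 5193 and 5049 CPM in rFGF4 replicates 1 to 4. CPM is the count scaled to a common library size over the tested genes (TMM scaling). The groups did not overlap in this sum, and each rFGF4 library stood at least 1003.8 CPM above every PBS library. The sum is made of the values in view when the list was drawn up. Gene by gene, the groups overlapped for 17 of the 49, as the heat map by library shows.

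**Figure D1:**
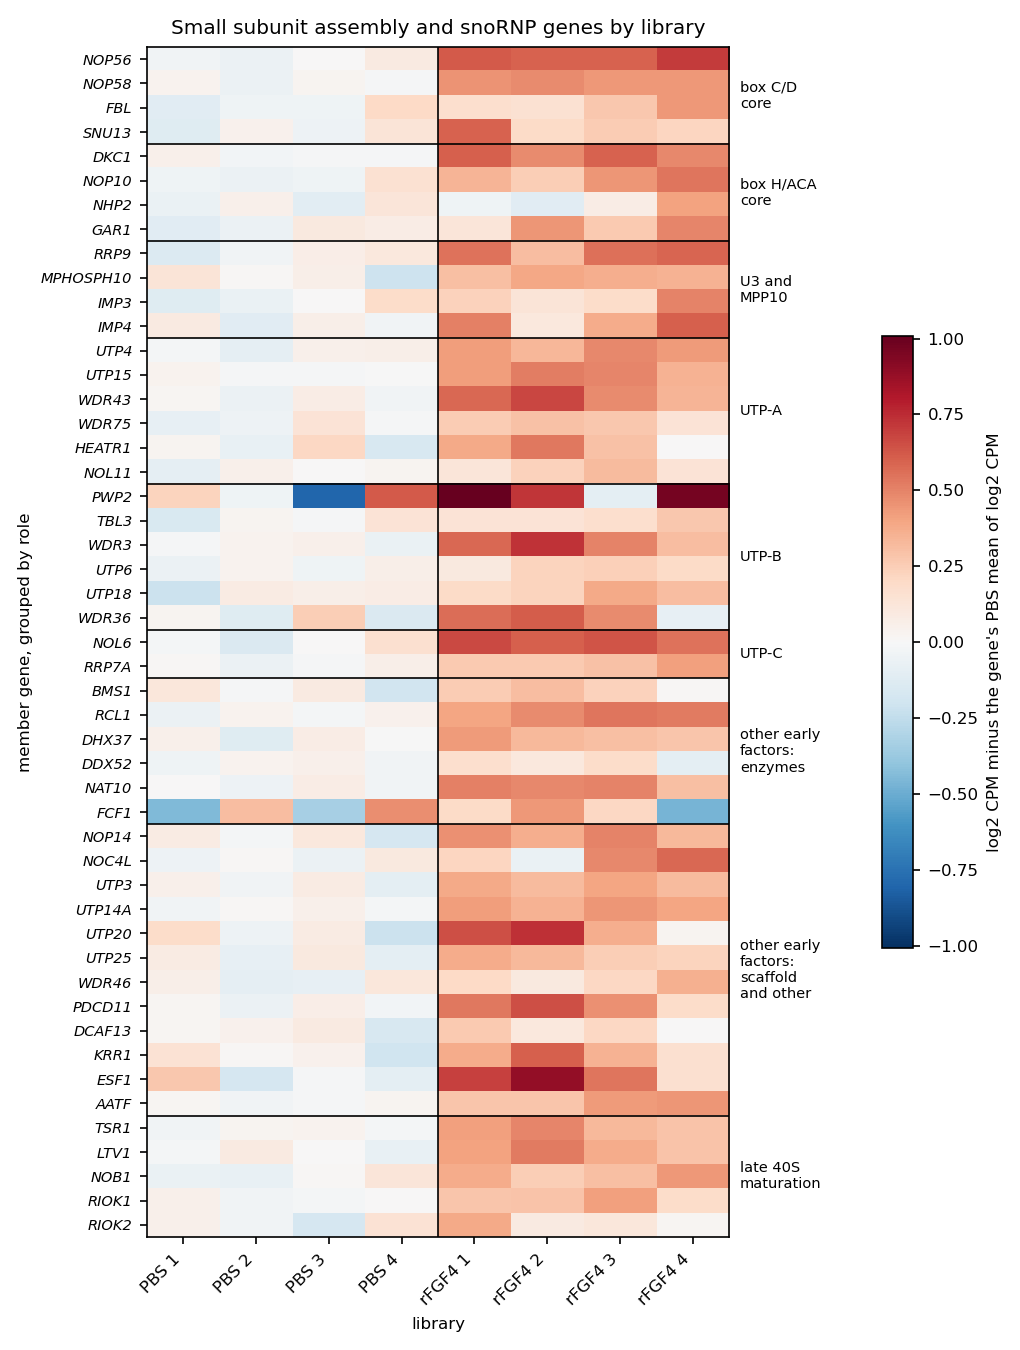
Each row is a gene and each column a library; colour gives log2 CPM minus the gene's mean of log2 CPM over the 4 PBS libraries. The rFGF4 columns are mostly above the PBS mean, while PWP2 and FCF1 vary within both groups.

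The scaffold pair of the box C/D snoRNP rose and its other core proteins did not pass. NOP56 (ENSG00000101361, chromosome 20, 2652593 to 2658393), which with NOP58 forms the scaffold, was counted at 228, 224, 234 and 248 CPM in PBS replicates 1 to 4 and 359, 353, 352 and 379.5 CPM in rFGF4 replicates 1 to 4. The lowest rFGF4 library stood 104 CPM above the highest PBS library. The means were 233 ± 10.5 CPM with PBS and 361 ± 12.9 CPM with rFGF4 (SD, n = 4), and the log2 fold change, 0.63 (SE 0.05), was the largest among the 49. NOP58 (chromosome 2, 202265736 to 202303433) was counted at 106, 99.3, 105 and 103 CPM in PBS replicates 1 to 4 and 142, 144, 140.2 and 140.1 CPM in rFGF4 replicates 1 to 4. Its rFGF4 libraries agreed closely (CV 1.15%, the SD as a percentage of the mean), the groups did not overlap, and the log2 fold change was 0.45 (SE 0.05).

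FBL (fibrillarin, chromosome 19, 39834458 to 39846379), the methyltransferase of the particle, was counted at 195, 205, 206 and 244 CPM in PBS replicates 1 to 4 and 238, 235, 256 and 287 CPM in rFGF4 replicates 1 to 4. PBS replicate 4 reached into the rFGF4 range, and the log2 fold change of 0.26 (SE 0.09) did not pass. SNU13, which binds the kink-turn of the guide RNA, stood at 75.1, 84.1, 78.8 and 89.6 CPM in PBS replicates 1 to 4 and 124, 93.4, 97.6 and 94.9 CPM in rFGF4 replicates 1 to 4. Here the groups did not overlap, but rFGF4 replicate 1 stood far above its group and the difference of 0.32 (SE 0.10) on the log2 scale did not pass.

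In the box H/ACA snoRNP, the catalytic subunit and a partner rose. DKC1 (dyskerin, chromosome X, 154762742 to 154777688), the pseudouridine synthase, was counted at 193, 183, 186 and 185 CPM in PBS replicates 1 to 4 and 283, 260.3, 282 and 262 CPM in rFGF4 replicates 1 to 4. The PBS libraries lay within 9.84 CPM of each other, and the groups did not overlap. The means were 187 ± 4.31 CPM with PBS and 272 ± 12.6 CPM with rFGF4 (SD, n = 4), a log2 fold change of 0.54 (SE 0.05). NOP10 (chromosome 15, 34341713 to 34343177), a small protein that binds dyskerin directly, was counted at 72.9, 72.3, 72.8 and 83.5 CPM in PBS replicates 1 to 4 and 95.5, 89.4, 103 and 109.5 CPM in rFGF4 replicates 1 to 4. No PBS library reached the lowest rFGF4 library, and the log2 fold change was 0.40 (SE 0.08). This call was lost when PBS replicate 1, 2 or 3, or replicate 3 of rFGF4, was left out. GAR1, which acts in substrate turnover, stood at 32.2, 33.5, 37.4 and 36.7 CPM in PBS replicates 1 to 4 and 38.00, 47.5, 42.03 and 49.1 CPM in rFGF4 replicates 1 to 4, without overlap, and its log2 fold change of 0.34 (SE 0.10) did not pass, though it did without rFGF4 replicate 1. NHP2, an RNA-binding partner of the same protein family as SNU13, stood at 90.9, 98.5, 88.5 and 104 CPM in PBS replicates 1 to 4 and 92.4, 88.03, 100.2 and 126 CPM in rFGF4 replicates 1 to 4. The 4 PBS values all lay within the rFGF4 range, the log2 fold change was 0.09 (SE 0.12), and without rFGF4 replicate 4 it was −0.03. The core proteins of both particles are plotted by library.

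**Figure D2:**
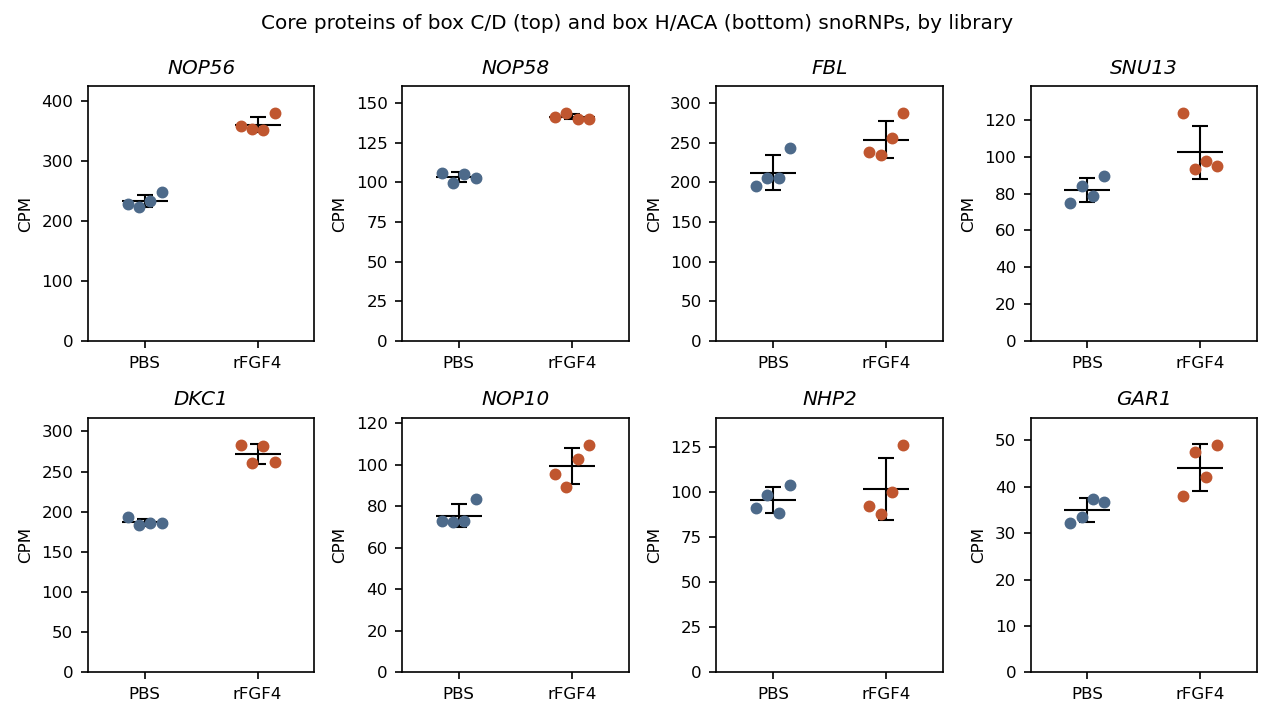
CPM in each of the 8 libraries for the 4 box C/D proteins (top row) and the 4 box H/ACA proteins (bottom row); points are libraries, the long bar is the mean and the whiskers are 1 SD (n = 4). The groups separate for NOP56, NOP58, SNU13, DKC1, NOP10 and GAR1 and overlap for FBL and NHP2.

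Per length, the 8 core proteins covered a wide range. NOP10 was the highest of all 49 genes at a mean of 130.5 FPKM over the 8 libraries, followed by FBL (90.3 FPKM), NHP2 (54.00 FPKM), NOB1 (53.3 FPKM), NOP56 (49.6 FPKM) and DKC1 (45.2 FPKM). NOP58 (30.96 FPKM), SNU13 (26.1 FPKM) and GAR1 (16.7 FPKM) were lower. The median of the 49 was 16.0 FPKM, against 5.71 FPKM over all tested genes. The genes at the low end were PWP2 (1.497 FPKM), RIOK2 (2.601 FPKM) and UTP25 (2.93 FPKM).

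Of the U3-specific protein and the MPP10 complex, 3 of 4 genes rose. RRP9, the protein specific to the U3 snoRNP, was counted at 33.3, 35.8, 38.4 and 39.5 CPM in PBS replicates 1 to 4 and 53.6, 45.5, 53.9 and 55.1 CPM in rFGF4 replicates 1 to 4. The groups did not overlap, although rFGF4 replicate 2 was low in its group, and the log2 fold change was 0.50 (SE 0.08). MPHOSPH10, the scaffold of the MPP10 complex, was counted at 42.7, 39.3, 40.5 and 33.8 CPM in PBS replicates 1 to 4 and 48.1, 51.1, 50.3 and 49.6 CPM in rFGF4 replicates 1 to 4. It was 0.35 (SE 0.08) higher on the log2 scale, with PBS replicate 4 lowest. IMP4, an RNA-binding partner of MPHOSPH10, was counted at 76.2, 66.1, 74.2 and 69.5 CPM in PBS replicates 1 to 4 and 102, 76.9, 92.6 and 109 CPM in rFGF4 replicates 1 to 4, and its log2 fold change was 0.41 (SE 0.11). The groups came within 0.723 CPM of each other. IMP3, the other partner, had a log2 difference of 0.27 (SE 0.10) and did not pass, with PBS replicate 4 inside the rFGF4 range. The IMP4 call was kept only without rFGF4 replicate 2 among the 8 fits that left out a library. That for MPHOSPH10 was lost on leaving out PBS replicate 2 or 3, or any of the first 3 rFGF4 libraries.

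UTP-A binds the start of the nascent precursor and in human cells is tied to its transcription. Of its 6 genes, 3 rose. UTP4 was counted at 165, 156, 172 and 174 CPM in PBS replicates 1 to 4 and 224, 210.1, 233 and 224 CPM in rFGF4 replicates 1 to 4, a log2 difference of 0.42 (SE 0.06) without overlap. UTP15 was counted at 33.6, 32.6, 32.7 and 32.7 CPM in PBS replicates 1 to 4 and 44.2, 46.96, 46.3 and 41.9 CPM in rFGF4 replicates 1 to 4. Its PBS libraries were the most alike of any gene among the 49 (CV 1.51%), and the log2 fold change was 0.45 (SE 0.06). WDR43 was counted at 95.4, 90.3, 98.7 and 91.5 CPM in PBS replicates 1 to 4 and 141, 150.001, 131 and 119 CPM in rFGF4 replicates 1 to 4 and its log2 fold change was 0.53 (SE 0.08), again without overlap. WDR75 (0.24, SE 0.07), HEATR1 (0.31, SE 0.12) and NOL11 (0.20, SE 0.06) did not pass. WDR75 passed without rFGF4 replicate 4 or without PBS replicate 3, and HEATR1 passed without rFGF4 replicate 4.

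UTP-B, a subcomplex rich in WD-repeat proteins, had a single call among 6 genes by edgeR. With DESeq2, UTP6 and UTP18 passed as well. WDR3 was counted at 68.6, 70.5, 71.3 and 65.7 CPM in PBS replicates 1 to 4 and 103, 114, 97.5 and 85.8 CPM in rFGF4 replicates 1 to 4, with a log2 fold change of 0.54 (SE 0.09). The groups were clearly apart, with rFGF4 replicate 4 nearest to PBS. UTP18, the most abundant of the 6 per length (18.2 FPKM), was counted at 46.04, 56.96, 55.96 and 56.4 CPM in PBS replicates 1 to 4 and 61.3, 62.6, 69.8 and 66.6 CPM in rFGF4 replicates 1 to 4. PBS replicate 1 lay well below the rest of its group, and the difference of 0.27 (SE 0.08) on the log2 scale did not pass. UTP6 (0.19, SE 0.06), TBL3 (0.18, SE 0.07) and WDR36 (0.41, SE 0.16) did not pass either. WDR36 passed without rFGF4 replicate 4.

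The row for PWP2, also of UTP-B, has a large fold change with a large error, and its counts are uncertain. PWP2 (chromosome 21, 44107373 to 44131181, on the + strand) was counted at 10.7, 8.93, 5.27 and 14.1 CPM in PBS replicates 1 to 4 and 18.5, 15.2, 8.59 and 17.97 CPM in rFGF4 replicates 1 to 4. The groups overlapped widely, the CV was 37.8% in PBS, the highest of the 49, and the log2 fold change of 0.63 (SE 0.33) did not pass. The table holds another row on chromosome 21 (5130871 to 5154734, ENSG00000275464) whose deposited description is a homolog of the same protein. That row was counted at 26.8, 30.2, 29.3 and 28.3 CPM in PBS replicates 1 to 4 and 34.7, 38.3, 38.8 and 35.9 CPM in rFGF4 replicates 1 to 4, without overlap and with CVs of 5.03% and 5.25%. It rose by 0.37 (SE 0.07). PWP2 held between 15.3% and 34.8% of the 2 rows' summed counts. Summed, the rows gave 37.6, 39.1, 34.5 and 42.4 CPM in PBS replicates 1 to 4 and 53.2, 53.5, 47.3 and 53.9 CPM in rFGF4 replicates 1 to 4. The log2 fold change was then 0.44 (SE 0.08) and passed, in a fit chosen after seeing the data. The stacked plot of both rows shows how the share of the PWP2 row changed between libraries.

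**Figure D3:**
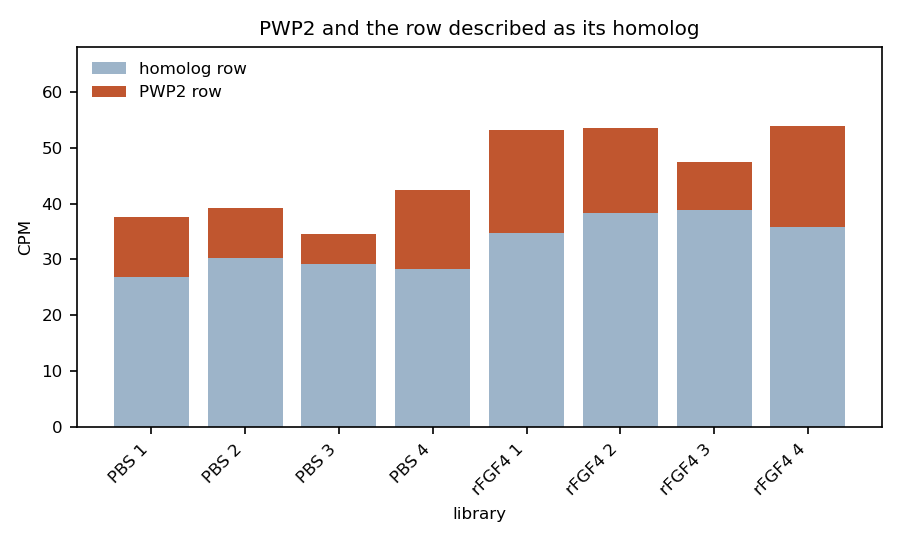
Stacked bars give CPM of the PWP2 row (orange) on top of the row described as its homolog (blue) in each library. The homolog row has a CV of 5.03% in PBS and 5.25% in rFGF4, while the PWP2 row runs from 5.27 to 14.1 CPM in PBS and from 8.59 to 18.5 CPM in rFGF4.

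Both UTP-C genes rose. NOL6, the larger of them, was counted at 62.2, 57.00, 62.99 and 70.5 CPM in PBS replicates 1 to 4 and 100.002, 95.5, 97.8 and 91.9 CPM in rFGF4 replicates 1 to 4. Every rFGF4 library was at least 21.4 CPM above the highest PBS library, and the log2 fold change of 0.61 (SE 0.07) was the largest outside the box C/D core among genes that passed. RRP7A was counted at 87.1, 83.1, 85.5 and 89.9 CPM in PBS replicates 1 to 4 and 104, 104, 106 and 115 CPM in rFGF4 replicates 1 to 4, with a log2 fold change of 0.31 (SE 0.06). The RRP7A call was lost without PBS replicate 2. Its pseudogene RRP7BP held 13.0% of its mean count, so the split between the 2 rows is uncertain.

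Of the 6 enzymes of the early nucleolar steps and their partners, 3 rose. NAT10, which acetylates cytidines of the small subunit RNA, was counted at 163, 157, 171 and 158 CPM in PBS replicates 1 to 4 and 229.96, 227, 229 and 200.04 CPM in rFGF4 replicates 1 to 4. It was 0.45 (SE 0.06) higher on the log2 scale, with rFGF4 replicate 4 below the rest of its group. RCL1, partner of the GTPase BMS1, was counted at 18.8, 20.1, 19.3 and 20.1 CPM in PBS replicates 1 to 4 and 25.8, 27.3, 28.4 and 28.2 CPM in rFGF4 replicates 1 to 4 and its log2 fold change was 0.49 (SE 0.07). The groups did not overlap and each was tight. DHX37, the RNA helicase that releases U3, was counted at 45.6, 40.3, 46.3 and 43.9 CPM in PBS replicates 1 to 4 and 59.2, 55.1, 54.3 and 53.3 CPM in rFGF4 replicates 1 to 4 and its log2 fold change was 0.33 (SE 0.06), again with no overlap. BMS1 itself (0.20, SE 0.09), the helicase DDX52 (0.10, SE 0.07) and the nuclease FCF1 (0.07, SE 0.25) did not pass. FCF1 was counted at 45.1, 76.3, 48.8 and 84.9 CPM in PBS replicates 1 to 4 and 70.2, 83.2, 70.9 and 44.3 CPM in rFGF4 replicates 1 to 4. Both groups spread from about 45 to over 80 CPM, so a difference between them was not detectable. Rows of its 11 pseudogene copies together held 0.312% of its mean count.

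Among the 12 scaffold and other early factors, 6 rose. AATF, the most abundant of them per length (41.05 FPKM), was counted at 204, 197, 199 and 205 CPM in PBS replicates 1 to 4 and 245, 244, 271 and 274 CPM in rFGF4 replicates 1 to 4 and its log2 fold change was 0.36 (SE 0.06). UTP14A, which activates DHX37, was counted at 118, 122, 125 and 119 CPM in PBS replicates 1 to 4 and 162, 155, 165 and 159 CPM in rFGF4 replicates 1 to 4 and its log2 fold change was 0.41 (SE 0.05). NOP14 was counted at 78.5, 73.4, 80.02 and 66.2 CPM in PBS replicates 1 to 4 and 102, 95.7, 105 and 93.2 CPM in rFGF4 replicates 1 to 4 and its log2 fold change was 0.41 (SE 0.08). In these 3 genes every rFGF4 library exceeded every PBS library. UTP3, a homolog of yeast Sas10, was counted at 54.8, 51.6, 56.3 and 49.6 CPM in PBS replicates 1 to 4 and 68.99, 65.97, 69.8 and 65.98 CPM in rFGF4 replicates 1 to 4 and its log2 fold change was 0.35 (SE 0.06). PDCD11, a large factor that acts on both subunits, was counted at 83.2, 78.98, 86.2 and 80.5 CPM in PBS replicates 1 to 4 and 119, 129, 113 and 93.3 CPM in rFGF4 replicates 1 to 4 and its log2 fold change was 0.47 (SE 0.10). UTP25 was counted at 34.9, 31.1, 35.5 and 30.9 CPM in PBS replicates 1 to 4 and 42.8, 41.5, 39.3 and 38.5 CPM in rFGF4 replicates 1 to 4 and its log2 fold change was 0.29 (SE 0.07). These last 3 were also without overlap. The call for UTP25 was kept only without rFGF4 replicate 4, and that for PDCD11 was lost on leaving out replicate 1, 2 or 4 of PBS, or 1 or 3 of rFGF4.

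The other 6 of these factors did not pass. ESF1 had the largest of their fold changes, 0.58 (SE 0.16), and was counted at 36.5, 26.8, 29.9 and 28.1 CPM in PBS replicates 1 to 4 and 48.6, 55.7, 43.8 and 33.6 CPM in rFGF4 replicates 1 to 4. PBS replicate 1 lay above rFGF4 replicate 4, and the remaining libraries were separated. UTP20 (0.46, SE 0.16), KRR1 (0.38, SE 0.11), NOC4L (0.32, SE 0.14), the partner of NOP14, WDR46 (0.22, SE 0.08) and DCAF13 (0.15, SE 0.08) made up the rest. Without rFGF4 replicate 4, ESF1, UTP20 and KRR1 passed. NOC4L passed without rFGF4 replicate 2.

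Late, largely cytoplasmic maturation had 4 of 5 genes higher. NOB1, the nuclease that makes the final cut of the small subunit RNA, was counted at 114, 113, 120.4 and 129.9 CPM in PBS replicates 1 to 4 and 155, 141, 147 and 162 CPM in rFGF4 replicates 1 to 4 and its log2 fold change was 0.34 (SE 0.07). TSR1, a GTPase-like factor that blocks early subunit joining, was counted at 144, 150.02, 151 and 145 CPM in PBS replicates 1 to 4 and 196, 208, 185 and 179.7 CPM in rFGF4 replicates 1 to 4 and its log2 fold change was 0.38 (SE 0.06). LTV1, an export and maturation factor, was counted at 34.5, 37.4, 35.2 and 33.3 CPM in PBS replicates 1 to 4 and 46.5, 50.3, 45.5 and 42.8 CPM in rFGF4 replicates 1 to 4 and its log2 fold change was 0.40 (SE 0.07). The groups did not overlap for any of these 3. The atypical kinase RIOK1, also without overlap, was counted at 44.5, 41.8, 42.2 and 43.02 CPM in PBS replicates 1 to 4 and 52.1, 52.3, 57.3 and 48.7 CPM in rFGF4 replicates 1 to 4 and its log2 fold change was 0.29 (SE 0.06). RIOK2, the other kinase, had a log2 difference of 0.16 (SE 0.11) and did not pass. The NOB1 call was lost on leaving out replicate 1 or 2 of PBS, or 1 of rFGF4. That for RIOK1 was lost on leaving out replicate 2, 3 or 4 of PBS, or 1 or 3 of rFGF4.

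**Figure D4:**
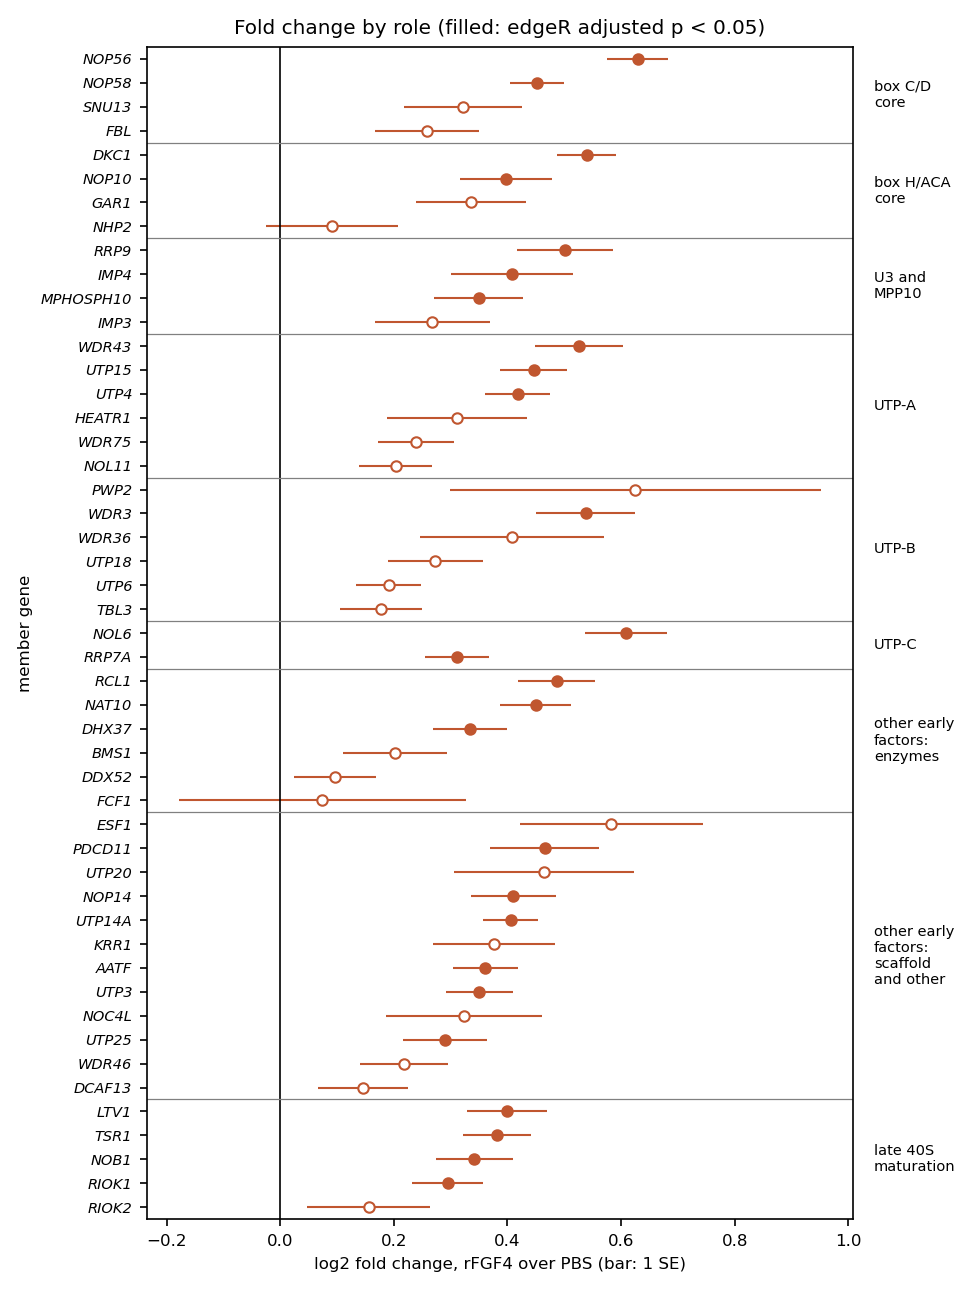
Log2 fold change (rFGF4 over PBS) of each of the 49 genes by role, with a bar of 1 SE; filled points passed edgeR's adjusted threshold. All points lie right of 0, from 0.07 (FCF1) to 0.63 (NOP56), and PWP2 and FCF1 have the widest bars.

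The role groups had similar medians, from 0.27 for the enzymes to 0.46 for UTP-C on the log2 scale, and their ranges overlapped. No difference between role groups was tested. Within the groups the median CV of the 49 genes was 7.02% in PBS and 6.74% in rFGF4, against 8.67% and 11.5% over all tested genes. The CVs were not compared at a like level: the median was 16.0 FPKM for the 49 and 5.71 FPKM over all tested genes.

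The size of the difference was not even across the rFGF4 libraries. Replicate 4 held the lowest value of its group for 24 of the 49 genes, replicate 2 for 16, replicate 1 for 7 and replicate 3 for 2. The highest value lay in replicate 2 for 16 genes, replicate 4 for 14, replicate 3 for 10 and replicate 1 for 9. The ratio of CPM to FPKM grows with the transcript length used in the FPKM. For the 24 genes in the upper part of that ratio, rFGF4 replicate 4 had a median deviation from its group mean of −0.12 on the log2 scale, and for the other 25 genes 0.03. The same was done for the tested genes with counts in every library, 5753 in each part. Over these the deviations of rFGF4 replicate 4 were −0.08 in the upper part and 0.10 in the lower. In rFGF4 replicates 1 to 3 they were 0.03, 0.06 and 0.01 in the upper part and −0.03, −0.05 and 0.003 in the lower. The part of length in these deviations was not tested. PBS replicate 4 deviated by −0.04 and 0.05 in the same division of the tested genes with counts in every library. Between rFGF4 and PBS the median log2 fold change was 0.36 for the upper 24 genes and 0.35 for the lower 25. Without rFGF4 replicate 4, 31 of the 49 genes rose in place of 26, and 25 of those 26 were among them, IMP4 being the exception. The number called over all tested genes also changed with the library left out. The closing section gives its range over these fits and not the number for this one. Nothing is read from the gain.

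MYC, a transcription factor known to drive ribosome assembly genes, was read beside them. It stood at 79.95, 70.7, 81.6 and 56.1 CPM in PBS replicates 1 to 4 and 98.05, 42.7, 6.65 and 61.5 CPM in rFGF4 replicates 1 to 4. In rFGF4 replicate 3, where MYC was lowest, the median of the 49 genes was 0.18 above their 8-library mean on the log2 scale, against 0.13 to 0.21 in the other rFGF4 libraries. The relation of MYC to the 49 genes was not tested. The difference in MYC, −0.46 (SE 0.61) on the log2 scale, did not pass. Of 9 tested genes of the MYC network, 1 rose, MLX (0.34), and 1 fell, MXD4 (−0.62), a MYC antagonist. The median of the 9 was −0.11, with 4 positive and 5 negative. Over all tested genes 5.49% rose and 4.54% fell, and nothing is read from the calls in this network.

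Other genes of the pathway were read from lists made with earlier results known. Of 22 further genes listed as small subunit factors, 6 rose and 0 fell, with a median log2 fold change of 0.21. By unadjusted p 1 was lower, and by DESeq2 0 were lower. The part of each listed gene in small subunit assembly was not checked. The 6 that rose were RRP12 (0.61, SE 0.06), the RNA helicase DDX21 (0.56, SE 0.13), PNO1 (0.56, SE 0.07), MYBBP1A (0.55, SE 0.07), the methyltransferase RRP8 (0.38, SE 0.08) and DDX10 (0.36, SE 0.06). Of 12 tested snoRNP assembly and transport factors, 3 rose and 0 fell, with a median of 0.17 and 2 negative values. Those that rose were NUFIP1 (0.44), which helps build box C/D particles, NAF1 (0.33), which helps build box H/ACA particles, and TCOF1 (0.42), the nucleolar protein treacle. Of 12 nuclear exosome genes, 2 rose, EXOSC4 (0.80) and EXOSC9 (0.37), and 0 fell. Their median was 0.19, with 3 negative values. Over all tested genes 5.49% rose and 4.54% fell.

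Large subunit assembly factors gave values similar to those of the 49 genes, with 18 of 31 higher, 0 lower and a median of 0.33. For RNA polymerase I genes it was 4 of 14 higher, 0 lower and 0.25. In both lists 0 were lower by unadjusted p and by DESeq2. Of 32 ribosomal proteins of the small subunit itself, 0 passed in either direction, with a median of 0.01 and a range of −0.31 to 0.19. RPS6, for example, stood at 1126 ± 87.5 CPM with PBS and 1153 ± 113 CPM with rFGF4 (mean ± SD, n = 4). By edgeR's unadjusted p at the same threshold, 0 of the 32 differed, and with DESeq2 0 passed. The lists were not tested against each other. The plot of fold changes by list shows the 49 genes beside them.

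**Figure D5:**
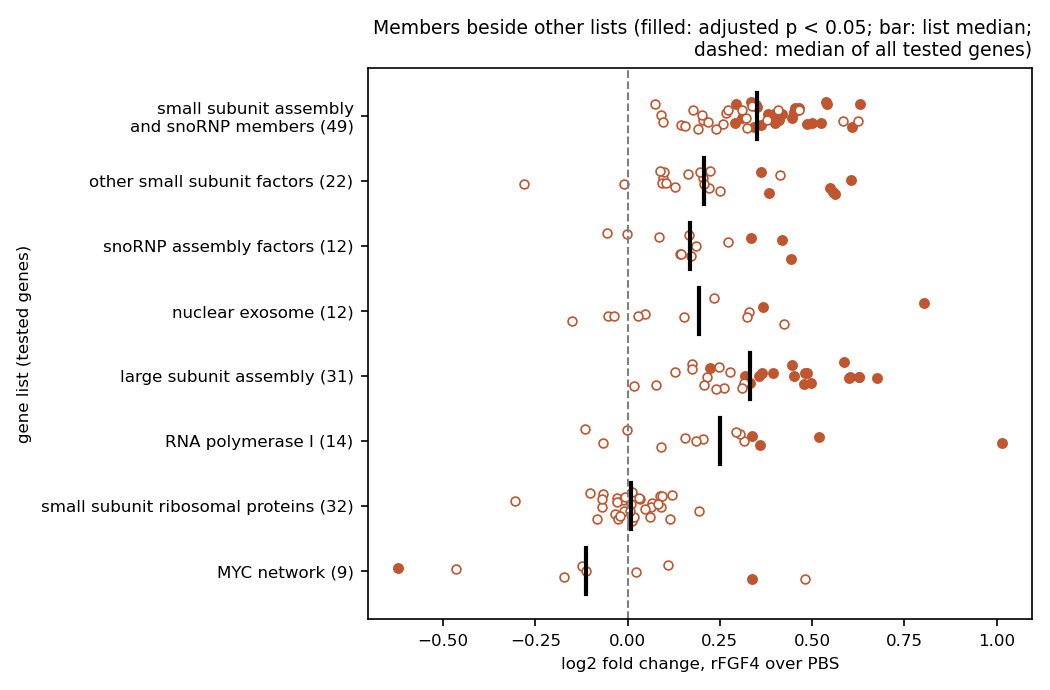
Log2 fold changes (rFGF4 over PBS) of the 49 genes and of the tested genes of 7 other lists; filled points passed edgeR's adjusted threshold, black bars are list medians and the dashed line is the median of all tested genes. The medians are 0.35 for the 49 genes, 0.33 for large subunit assembly and 0.01 for small subunit ribosomal proteins.

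The deposited annotation gives pathway terms that were not made from the list. The calls below are for the genes of each term left after the 49 were taken out. Its KEGG term for ribosome biogenesis in eukaryotes covered 78 genes, 32 of them among the 49. Of the 41 other tested genes with the term, 7 rose and 0 fell, with a median of 0.17. The term for rRNA processing covered 44 of the 49. Of the 112 other tested genes with it, 23 rose and 1 fell, with a median of 0.15. The term for the small-subunit processome left 9 other tested genes, of which 1 rose and 0 fell (median 0.14). The broad term for the nucleolus left 661, of which 79 rose and 9 fell (median 0.04). Over all tested genes 5.49% rose. All 4 terms were looked up after the data had been seen, and none was tested.

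Several of the 49 genes hold snoRNAs in their introns, so that box C/D and H/ACA guide RNAs are made from genes for snoRNP proteins. The table has 17 snoRNA rows inside 6 of the genes, NOP56, NOP58, DKC1, WDR43, NOL11 and TSR1. In 14 of the 17 rows no library reached 12 counts, taken as worth about 3 fragments. SNORA51, inside NOP56, had the most, with 8, 25, 24 and 2 counts in PBS replicates 1 to 4 and 27, 35, 23 and 18 in rFGF4 replicates 1 to 4. The groups overlapped, and its log2 fold change of 0.68 did not pass (edgeR adjusted p = 0.554). The reason for the low counts of these rows was not tested.

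No source used here says if reads were counted by strand. Where genes overlap on opposite strands, reads in the shared stretch therefore cannot be told apart. In 9 of the 49 genes (SNU13, NHP2, IMP3, IMP4, UTP4, UTP15, HEATR1, DCAF13 and TSR1) an opposite-strand gene overlapped and held at least 10% of the gene's own mean count. That percentage takes the overlapping gene's whole count, and reads in the shared stretch were not counted apart. For IMP3 the overlapping gene SNX33 held 108% and fell by 0.31 on the log2 scale, and for HEATR1 LGALS8 held 90.6% and had −0.26. IMP3 spans 75639085 to 75648706 and SNX33 spans 75647906 to 75662301. HEATR1 spans 236549005 to 236604516 and LGALS8 spans 236518000 to 236552981. The opposite-strand genes of this size over IMP4, UTP4, UTP15 and TSR1, which rose, had negative log2 fold changes. So did RMND5B over NHP2 (−0.22). Those over DCAF13 (SLC25A32, 33.3% of its count, 0.36) and SNU13 (C22orf46, 18.8%, 0.29) had positive ones. C22orf46 had 90 counts in PBS replicate 4, 1126 to 1589 in the other PBS libraries and 1024 to 1510 with rFGF4. It did not pass (edgeR adjusted p = 0.827). UTP4 was also overlapped on its own strand by SNTB2, which held 18.4% of its mean count and had −0.12 on the log2 scale. UTP4 spans 69131291 to 69231130 and SNTB2 spans 69187129 to 69309052. That overlap does not depend on the use of strand. The part of overlapping reads in the fold changes was not tested.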

How the data were processed

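RNA-seq of 8 libraries, 4 PBS and 4 rFGF4, was taken from a single table in which the authors deposited FPKM and count columns, per the file headers. FPKM carries 0.0001 in place of 0. The deposited counts are whole numbers that behave as estimated counts and were used as they stand. They are not numbers of fragments: 4 counts were taken as worth about 1 fragment. The submitters' processing notes name HISAT2 2.0 and StringTie 1.3.0. What each did, the genome build, the annotation and the use of strand were not given in the sources used here. Coordinates are those of the table.

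Because the values are human, 521 of 58825 genes (all Y-linked ones, with XIST and TSIX) were left out. The 11536 genes whose FPKM averaged 1 or more were tested with edgeR 4.0.16 in R 4.3.3 (TMM, glmQLFit, glmQLFTest, two-sided, Benjamini-Hochberg over all of them, threshold 0.05). SEs are implied by the test statistic. Library totals were 62044121 to 73680756 counts. The fit was first tested on simulated data.

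The members and all lists were chosen with earlier results of these data known. The rule for genes described by library took the 8 core snoRNP proteins, every member past the threshold, and in each role group the largest fold change and the highest FPKM; FCF1, the snoRNA and overlapping rows, RPS6, KRT5, KRT14, PTPRC, CD68, CDH5 and MYC were added after their values were seen. Alternatives were median-of-ratios (DESeq2 1.42.0) and upper-quartile scaling, other filters, DESeq2, limma 3.58.1 on log2(FPKM + 1) and log2(FPKM + 0.1), a replicate block, each library left out and the summed PWP2 rows. The promoter motif search was not run, since no human sequences were at hand.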

Additional observations from a re-analysis of the deposited data

Results flagged for a closer look

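In 98 groups of 4 values (49 genes in 2 groups of libraries), 6 held a library far from the other 3 by Dixon's criterion; chance alone flags about 5% of groups. For SNU13, rFGF4 replicate 1 had 123.6 CPM and the others of its group 93.4 to 97.6 CPM. NOP10 stood at 83.5 CPM in PBS replicate 4, against 72.3 to 72.9 CPM. RRP9 was low in rFGF4 replicate 2, at 45.5 CPM against 53.6 to 55.1 CPM. UTP15 was at 33.6 CPM in PBS replicate 1, against 32.6 to 32.7 CPM, a small distance in a tight group. UTP18 was low in PBS replicate 1, at 46.0 CPM against 56.0 to 57.0 CPM. NAT10 was low in rFGF4 replicate 4, at 200.04 CPM against 226.9 to 229.96 CPM.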

How the results depend on the processing

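Across 16 alternative analyses the number of the 49 genes that rose was 22 to 35 with the other scalings, filters and tests (35 with DESeq2, 22 with no filter and with either limma fit) and 18 (without PBS replicate 2) to 31 (without rFGF4 replicate 4) with a library left out; none fell. Their median log2 fold change lay between 0.30 and 0.38. DESeq2 kept all 26 calls and added SNU13, GAR1, WDR75, NOL11, UTP6, UTP18, UTP20, KRR1 and ESF1. Over all tested genes, DESeq2 called 982 higher and 846 lower in place of 633 and 524. Leaving out a library gave 326 to 622 higher and 269 to 550 lower genes. NHP2, not past the threshold, changed sign without rFGF4 replicate 4 (−0.033, the lowest of the values with an rFGF4 library left out, the highest being 0.15); the cause was not tested. The fit with the replicate number as a block called 27 of the 49 genes and 561 higher genes in all; 23 of the 27 were among the 26, FBL, IMP3, PWP2 and KRR1 were added, and MPHOSPH10, UTP25 and RIOK1 were lost. Same-numbered libraries had correlated deviations of 0.12, 0.06, −0.02 and 0.28, so the numbers were not taken as pairs; libraries numbered 1 and 4 correlated best with their own number, and those numbered 2 and 3 did not in at least 1 group. IMP4 lost its call in 12 of the 16 analyses, UTP25 in 11, MPHOSPH10 in 9, PDCD11 and RIOK1 in 7, NOP10 in 4, NOB1 in 3 and RRP7A in 1. The other 18 genes that rose kept their calls in all 16.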
